A study of Mus musculus with 2 samples.

Results

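The cells described here are mouse embryonic stem cells cultured with LIF and BMP4 that carried RNA of T (Brachyury), and they numbered 270 of the 1783 LB cells kept after filtering (15.1%, exact binomial 95% interval 13.5 to 16.9). They were chosen by raw counts of unique molecular identifiers (UMIs, 1 per captured RNA molecule): at least 2 UMIs of T, at most 2 of Mesp1 and Mesp2 together, and at most 1 of Hand1, Foxf1, Prdm6 and Pitx1 together. Levels of these 7 genes in the chosen cells therefore describe the choice and are not findings. The other 1513 kept LB cells served for comparison.

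The study profiled R1, an established mouse embryonic stem cell line, in 2 droplet single-cell RNA libraries, 1 for each condition, after 72 hours of treatment. LB cells grew on gelatin in N2B27, a serum-free medium, with BMP4 and with LIF, the cytokine used to keep mouse stem cells undifferentiated. LBPXRS cells grew on fibronectin in N2B27 with LIF, BMP4, PD0325901 (a MEK inhibitor), Xav939 (a tankyrase inhibitor that lowers WNT signalling), Resorcyclic lactone and SB431542 (an inhibitor of NODAL and activin receptors), so the effects of medium and of substrate cannot be told apart. With 1 library per condition and all of the T-positive cells in 1 library, no difference here has a replicate check and no test was made; intervals are at 95% and cover counting error only.

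The primitive streak is the region of the gastrulating mouse embryo through which epiblast cells leave the epithelium to form mesoderm and endoderm. T is a T-box transcription factor of the streak, the nascent mesoderm and the notochord, and its transcription responds to WNT signals. Epiblast cells that enter the streak express T, Wnt3, Fgf8, Mixl1 and Eomes and lose Sox2, and those that go on to mesoderm switch on Mesp1. Genes of the interferon response encode antiviral proteins and the machinery that presents peptides on MHC class I molecules, and pluripotent stem cells are known for a weak response to interferon.

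The T-positive cells held 6816196 UMIs, with 3005 to 73152 per cell and a median of 24307 UMIs and 4625.5 genes, against medians of 25575 UMIs and 4500 genes in the other LB cells. The median mitochondrial share was 2.73% against 2.72%. Scrublet, a doublet caller, marked 6 of the T-positive cells (2.22%) and 6 of the others (0.397%); marked cells were kept. Between the kept cells of the libraries 8 barcodes were shared, and 0 of them belonged to T-positive cells.

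T was spread over a wide range among the chosen cells, from 2 to 60 UMIs with a median of 8 (quartiles 4 and 17). These cells held 71.6% of all T UMIs in kept LB cells. The lower limit did not fall in a gap: 29 cells had 2 UMIs of T and 21 had 3, while 106 cells that met the other limits had 1. On the Mesp limit, 10 of the 270 cells stood at a sum of 2 and 8 cells with at least 2 T UMIs stood just outside, at 3. On the Hand1 limit, 32 stood at a sum of 1, and 12 cells with at least 2 T UMIs stood just outside, at 2. In all, 389 LB cells had at least 2 T UMIs, of which 85 were set aside by the Hand1 limit and 34 by the Mesp limit alone.

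**Figure D1:**
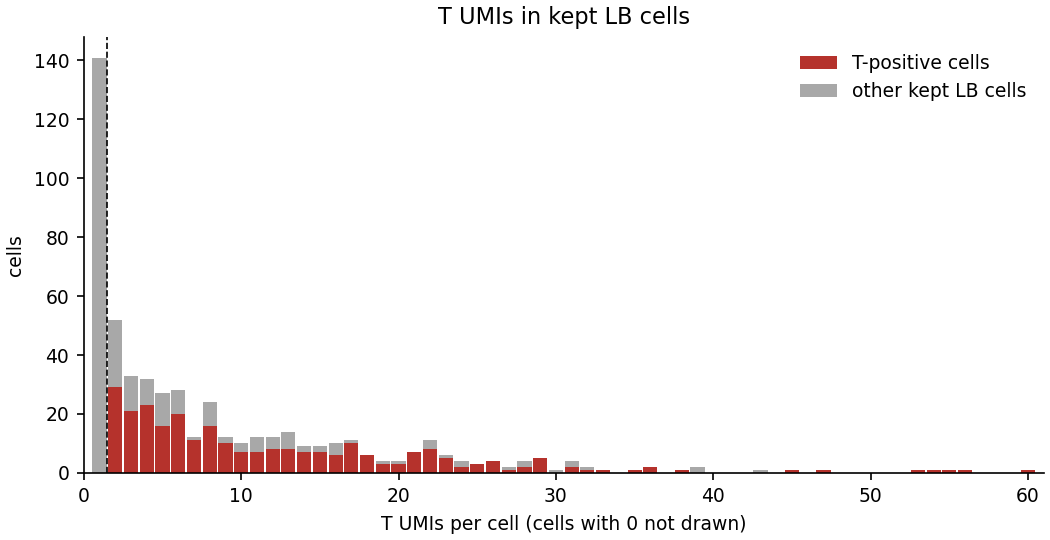
Number of kept LB cells (y axis) at each count of T UMIs per cell (x axis, from 1 to 60), with T-positive cells in red, other LB cells in grey and the lower limit of 2 UMIs dashed. Of the chosen cells 29 stand at 2 UMIs and 124 at 10 or more.

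The same limits were met by 0 of 2705 kept LBPXRS cells, so that a share up to 0.111% (3 cells) or 0.136% (exact upper limit) is not excluded by the count. That library held 3 UMIs of T in all, in 3 cells with 1 each, at a median depth of 19058 UMIs. In CPM (UMIs per 1000000 UMIs of a set of cells), the Y-linked gene Eif2s3y had 38.3 in the T-positive cells and 37.1 in the other LB cells, and it had 0 UMIs in LBPXRS, so the libraries also differed in Y-linked RNA. Its part in the count of 0 was not tested.

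Levels were compared as CPM, with the UMIs of a gene summed over the cells of a set. Of 7529 genes with at least 10 CPM in either set, 220 (2.92%) were at least 2-fold higher in the T-positive cells than in the other LB cells and 261 (3.47%) at least 2-fold lower, as a log2 ratio with 1 CPM added to each side. The median log2 ratio over 12475 genes with a mean of at least 1 CPM was 0.07. Counts of list genes below are read against these shares. The other LB cells are a mixture of classes, and the direction of a ratio against them need not hold against each class.

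**Figure D2:**
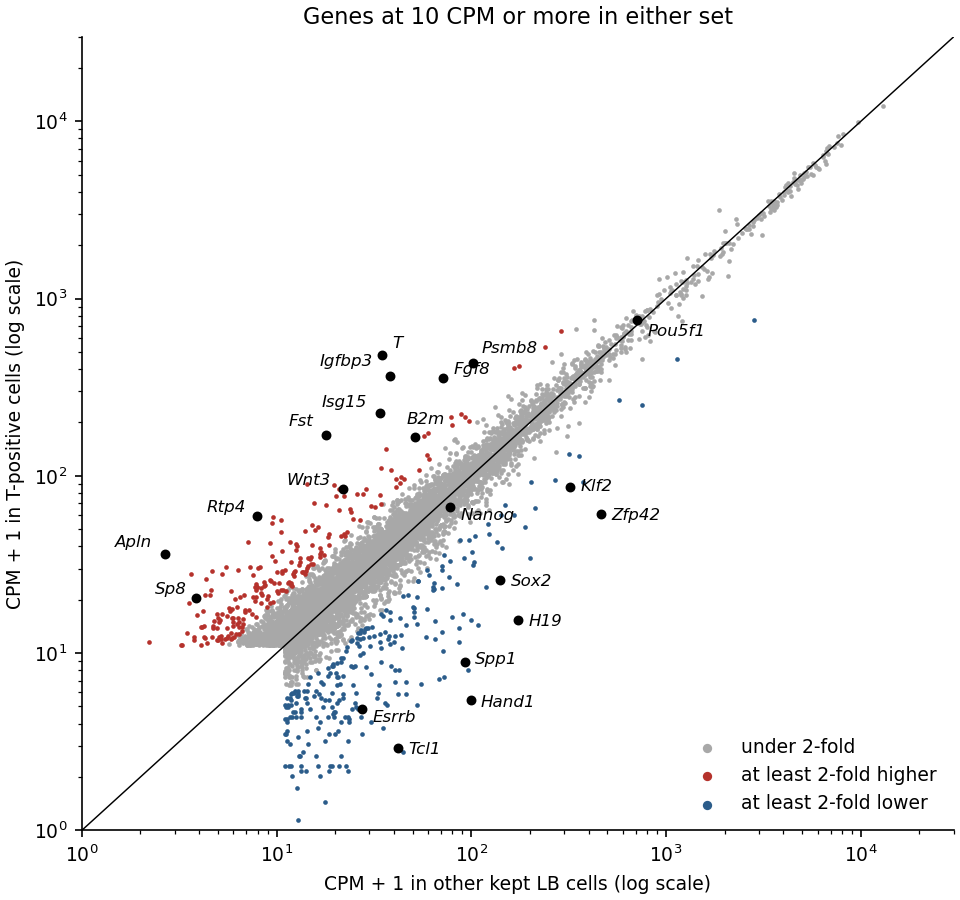
CPM of each gene at 10 CPM or more in either set, in T-positive cells (y axis) against the other kept LB cells (x axis), both on log scales with 1 added; red and blue points are at least 2-fold higher (220 genes) or lower (261 genes), and the line marks equality. T, Fst, Igfbp3, Isg15 and Apln lie far above the line, Zfp42, Sox2 and Tcl1 far below it, and Pou5f1 and Nanog near it.

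The streak genes were compared first. Of the 14 genes of the primitive streak list, 10 reached 10 CPM and 6 of these were at least 2-fold higher (T, Fgf8, Wnt3, Sp5, Sp8 and Evx1), 0 were 2-fold lower, and Mixl1, Eomes, Nodal and Lhx1 lay within 2-fold. T belongs to the rule that chose the cells. Wnt3a, Gsc and Foxa2 stayed under 10 CPM in both sets, and Cer1 had 0 UMIs. The median log2 ratio over the 12 list genes with a mean of at least 1 CPM was 1.32, and 1.28 over the 11 without T.

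For T and Sp5, which respond to WNT signals, the sequence before the start site is shown with the letters CTTTGA, a core of the site bound by TCF factors, or their reverse complement, in capitals (RefSeq, GRCm38.p6, plus strand). T lies at chr17:8434423-8442496, and its stretch at chr17:8434173-8434224. Sp5 lies at chr2:70474923-70477726, and its stretch at chr2:70474689-70474754, which holds 1 of 2 matches in its window.
T: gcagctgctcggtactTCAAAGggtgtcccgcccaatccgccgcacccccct
Sp5: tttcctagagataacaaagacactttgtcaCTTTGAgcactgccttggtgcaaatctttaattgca
Searched on both strands of the 250 bases before the start, these letters occurred at 3 of the 12 streak genes in the RefSeq table (T, Sp5 and Sp8) and at 15.8% of 27025 gene symbols, so a match is a description and not a bound site. The letters TCACACCT, bound by T-box factors, occurred at 0 of the 12 streak genes and 1.30% of symbols.

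Fgf8 (ENSMUSG00000025219, chr19:45736491-45742941), the FGF ligand that streak cells need to move away from the streak, had 354 CPM in the T-positive cells (340 to 368) and 70.7 CPM in the others (68.1 to 73.4), 5.00-fold higher (4.73 to 5.29). It ranged from 0 to 59 UMIs per T-positive cell with a median of 6, and 229 of the 270 cells had at least 1. After thinning each cell at random to 5000 UMIs, which 264 of them reached, 64.0% had an Fgf8 UMI (57.9 to 69.8), or 84.8% without thinning. In the 255 LB cells without T that were highest in naive pluripotency genes, called naive-high cells here and used as the background level, the share was 2.01% thinned and 9.02% unthinned, at a median depth of 25563 UMIs. The thinned share was 11.8% in the 191 cells highest in formative genes among the remaining cells without T (formative-high cells, median 27550 UMIs) and 29.5% in the 342 cells over the Hand1 limit (Hand1 class, median 25683.5 UMIs).

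Wnt3 (ENSMUSG00000000125), the WNT ligand required for the streak to form, had 83.04 CPM (76.3 to 90.2) against 20.9 CPM (19.5 to 22.4), 3.98-fold higher, and was found in 33.7% of thinned T-positive cells, 0.803% of naive-high, 12.4% of formative-high and 17.99% of Hand1 class cells. In the 34 cells with at least 2 T UMIs that were over the Mesp limit it was 38.2%. The zinc finger factors Sp5 and Sp8, both targets of WNT signalling in the streak and tail bud, were 3.67-fold (3.18 to 4.23) and 6.75-fold (5.20 to 8.76) higher. Sp8 was sparse: 8.33% of thinned T-positive cells held a UMI (5.30 to 12.3) and 0 of 249 naive-high cells did. It was found in 2.95% of Hand1 class cells and 17.6% (6.76 to 34.5) of the 34 cells with at least 2 T UMIs over the Mesp limit. Sp5 was found in 15.9% of thinned T-positive cells, 7.96% of Hand1 class cells and 14.7% of those 34 cells. Evx1, a homeobox factor of the posterior streak, had 23.8 CPM against 9.23 CPM, but the Hand1 class had 30.5 CPM, and the order of their shares of cells turned with depth: 8.71% of T-positive and 13.9% of Hand1 class cells held a UMI at 5000 UMIs, 21.9% and 21.0% at 10000, and 34.4% and 39.8% unthinned. Axin2, a common readout of WNT signalling, was 1.63-fold higher (1.36 to 1.93), below the 2-fold mark, and of the 8 WNT target genes at 10 CPM or more only Sp5 was 2-fold higher, while Sfrp1 was 2-fold lower.

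Mixl1 and Eomes, transcription factors of mesendoderm, lay within 2-fold of the other LB cells, which hold classes rich in both. Mixl1 had 22.2 CPM (18.8 to 26.0) against 17.4 CPM (16.1 to 18.7), and 56.3% of its UMIs came from 10 of the 270 cells. The others ranged from 3.88 CPM in cells with 0 T UMIs to 51.2 CPM in the Hand1 class and 112 CPM in the cells over the Mesp limit with at most 1 T UMI. A Mixl1 UMI was found in 6.44% of thinned T-positive cells, 0.402% of naive-high cells and 12.4% of Hand1 class cells. Eomes had 8.95 CPM (6.85 to 11.5) against 13.4 CPM (12.3 to 14.6), 1.497-fold lower, with 6.396 CPM in cells with 0 T UMIs and 26.2 CPM in the Hand1 class. Its thinned shares were 4.92% in T-positive, 1.61% in naive-high and 10.3% in Hand1 class cells. Lhx1, a factor of the anterior streak, had 9.98 CPM against 11.5 CPM. Nodal, the TGF-beta ligand that maintains the streak, had 22.7 CPM against 17.8 CPM. Its thinned shares were 7.20% in T-positive, 13.7% in naive-high, 14.5% in formative-high and 2.95% in Hand1 class cells.

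Genes of later stages of the lineage varied. Mesp1 and Mesp2 were limited by the rule. Of the 12 other nascent mesoderm genes, 4 reached 10 CPM, and Tbx6, Msgn1, Dll1, Snai1, Pdgfra and Kdr were among the 8 that stayed below it in both sets. Without the Mesp genes the list's median log2 ratio was 0.46 over 9 genes (-0.58 over 10 genes against the Hand1 class alone), and its per-cell sum had a median of 90.7 CPM in T-positive cells (0 to 2215.2), 0 CPM in the other LB cells and 167.5 CPM in the Hand1 class. Aplnr, the apelin receptor, and Rspo3, a WNT agonist, were 3.47-fold (2.58 to 4.64) and 2.25-fold (2.01 to 2.51) higher. Cited1, a transcriptional co-activator, and Dll3, a Notch ligand of the presomitic mesoderm, were 1.72-fold (1.55 to 1.91) and 1.59-fold (1.31 to 1.92) higher, within 2-fold. Of 25 Hox genes, 24 stayed under 10 CPM in both sets; Hoxb1 had 11.4 CPM against 4.60 CPM, and 74.4% of its UMIs came from 10 cells, while the Hand1 class had 16.9 CPM and held a Hoxb1 UMI in 18.4% of cells, against 10.4% of T-positive cells (unthinned). Cdx2, a caudal homeobox factor, had 45.3 CPM in T-positive cells and 45.2 CPM in the others, which included 171 CPM in the cells over the Hand1 limit.

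Markers of neighbouring cell types were checked the same way. In the definitive endoderm list 0 of 8 genes reached 10 CPM (Sox17 had 1.76 CPM and Cxcr4 0.587 CPM). Noto and Shh, genes of the node and notochord, had 0 UMIs, while Foxj1, a factor of ciliated cells such as those of the node, had 12.03 CPM (9.57 to 14.9) against 2.48 CPM. In the trophoblast list Elf5 was at 0 UMIs and Gata3, Gata2, Tfap2a and Krt7 were below 10 CPM, while the keratins Krt8, Krt18 and Krt19 had 161, 173 and 146 CPM, against 192, 186 and 100.1 CPM in the other LB cells. These were 667, 634 and 329.6 CPM in the Hand1 class but 40.0, 42.4 and 18.9 CPM in cells with 0 T UMIs, and the summed trophoblast list had 572 CPM in T-positive cells, 1911 CPM in the Hand1 class, 163 CPM in cells with 0 T UMIs, with 89.5 CPM in naive-high and 129.9 CPM in formative-high cells. In the neural list Sox1, a marker of neural plate, had 0 UMIs, and 2 of 11 genes reached 10 CPM: Nes, an intermediate filament gene of neural progenitors, was 2.15-fold higher (1.83 to 2.52) and the neuronal tubulin gene Tubb3 4.53-fold lower (3.15 to 6.76). Of the 13 genes of the 2-cell embryo list in the gene table, 0 reached 10 CPM, with 14 UMIs in all. The summed level of the list was 2.05 CPM against 0.517 CPM.

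Set against the name primitive streak-like, and leaving out T, which chose the cells, Fgf8, Wnt3, Sp5 and Sp8 were at least 2-fold higher in these cells. They were shared with the 34 cells with at least 2 T UMIs over the Mesp limit, at 91.2%, 38.2%, 14.7% and 17.6% of thinned cells. Evx1 was also higher in the T-positive cells but no higher than in the Hand1 class. Mixl1 and Eomes lay within 2-fold, and the endoderm genes were under 10 CPM in both sets. Interferon genes were among the 12 largest ratios at 20 CPM or more: T, Apln, Fst, Igfbp3, Trim67, Rtp4, Isg15, Sprr2a3, Cpxm2, Alox15, Ppp4r4 and Oasl2. Sprr2a3 has near-identical neighbours in its gene cluster, so its value is uncertain.

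Of the genes with the largest ratios, Igfbp3 (ENSMUSG00000020427, chr11:7206086-7215498), which encodes a binding protein of insulin-like growth factors, had 363 CPM (349 to 377) against 37.4 CPM (35.5 to 39.4), 9.69-fold higher (9.08 to 10.3). It was found in 58.3% of thinned T-positive cells (52.1 to 64.3; 84.1% unthinned), 5.22% of naive-high, 13.4% of formative-high and 12.1% of Hand1 class cells. Fst, which encodes follistatin, an inhibitor of activin and some BMPs, had 170 CPM against 17.0 CPM, 9.98-fold higher (9.06 to 11.0). Apln, the ligand of Aplnr, had 35.4 CPM (31.0 to 40.1) against 1.68 CPM (1.30 to 2.14), 21.0-fold higher (15.9 to 28.1). Apln and Aplnr, ligand and receptor, were thus both higher than in the other LB cells as a whole, from 241 and 77 UMIs. They differed by class. Aplnr was found in 4.55% of thinned T-positive cells and 23.5% of the 34 cells with at least 2 T UMIs over the Mesp limit. Apln was found in 10.6% and 5.88% of these. Unthinned, Aplnr was found in 14.8% of T-positive and 14.3% of Hand1 class cells, and Apln in 37.4% and 2.34%.

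Lefty1, a target and inhibitor of NODAL signalling, was 2.21-fold higher (2.04 to 2.39), although it was uneven, with 50.2% of its UMIs in 10 cells. The share of cells with a Lefty1 UMI differed less. It was 20.1% of thinned T-positive cells, 16.8% of cells with 0 T UMIs and 21.0% of formative-high cells. Unthinned, these shares were 36.7%, 36.2% and 41.4%. Lefty2, a related target, was 1.48-fold lower (1.32 to 1.66) and Gdf3, a NODAL-related ligand, 2.13-fold lower (1.82 to 2.51). Of the ERK target list, Dusp4 and Dusp6, phosphatases that restrain ERK, were 3.16-fold (2.80 to 3.56) and 2.80-fold (2.41 to 3.24) higher, and the other 6 genes at 10 CPM or more lay within 2-fold. Bmp4 itself had 13.6 CPM (11.0 to 16.7) against 51.6 CPM (49.4 to 54.0), 3.78-fold lower. Of the BMP target genes, Id1 was 1.71-fold higher (1.62 to 1.80), Id3 1.22-fold lower, and Msx2 and Bambi 2.10-fold and 2.04-fold lower. The other LB cells include the Hand1 class: Msx2 had 12.03 CPM in T-positive cells, 87.4 CPM in the Hand1 class and 5.39 CPM in cells with 0 T UMIs, and Bambi 28.5, 168.9 and 23.03 CPM. The summed BMP target level was 594 CPM in T-positive cells, 1049 CPM in the Hand1 class, 368 CPM in cells with 0 T UMIs and, within these, 279 CPM in naive-high and 651 CPM in formative-high cells.

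Pluripotency genes divided. Pou5f1, the core factor Oct4, had 760 CPM in T-positive cells (740 to 781) and 711 CPM in the others (703 to 720), and 268 of the 270 cells had at least 1 UMI. Nanog had 65.3 CPM (59.4 to 71.6) against 77.0 CPM (74.2 to 79.8), 1.18-fold lower. All 9 genes of the core pluripotency list reached 10 CPM, and 4 were at least 2-fold lower (Sox2, Utf1, Dppa4 and Dppa5a). The other 5 lay within 2-fold (Pou5f1, Sall4, Lin28a, Tdgf1 and L1td1). The summed core list had 2269 CPM in T-positive cells, 4852 CPM in the other LB cells and 1020 CPM in the Hand1 class. Sox2, the partner of Oct4 that is kept in neural fates, had 24.8 CPM (21.2 to 28.8) against 140 CPM (136 to 144), 5.65-fold lower (4.85 to 6.62), but the Hand1 class had 10.1 CPM, below the T-positive cells. Of the 12 naive pluripotency genes at 10 CPM or more, 10 were at least 2-fold lower, against 3.47% of all counted genes, and the list's median log2 ratio was -2.33; against the Hand1 class alone it was 0.86.

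Among them Zfp42 (ENSMUSG00000051176), the marker Rex1, was 7.71-fold lower (6.98 to 8.52), with 59.9 CPM against 461 CPM. Klf2, a naive transcription factor, was 3.72-fold lower and Esrrb, another, 6.93-fold lower (4.71 to 10.7). The Hand1 class lay below the T-positive cells in all 3: Zfp42 had 30.7 CPM there, Klf2 14.06 CPM against 85.8 CPM, and Esrrb 1.74 CPM against 3.81 CPM. Zfp42 was not even: 117 of the 270 cells had a UMI, and 58.6% of its UMIs came from 10 cells. Of the 12 smallest ratios at 20 CPM or more (Hand1, Gm49504, Tcl1, Fam25c, H19, Khdc3, Spp1, Hsf2bp, Jam2, Mymx, Morc1 and Gpa33), Hand1 belongs to the rule. Tcl1, a co-activator of AKT in stem cells, had 1.91 CPM against 40.9 CPM, and Spp1, which encodes osteopontin, 7.92 CPM against 91.7 CPM; both were lower still in the Hand1 class, at 1.42 and 5.23 CPM.

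Formative genes, which mark the state between naive and primed, showed no common direction. Fgf5, the epiblast FGF ligand, was 3.57-fold higher (2.71 to 4.68) and Otx2, a factor of the formative state, 2.86-fold lower (2.33 to 3.53; 14.7 CPM against 41.9 CPM, and 11.8 CPM in the Hand1 class), while 8 of the 10 genes at 10 CPM or more lay within 2-fold, among them the DNA methyltransferase Dnmt3b with 109 CPM against 117 CPM. Of the 7 genes of the epithelial to mesenchymal transition list at 10 CPM or more, 6 lay within 2-fold. Cdh1, which encodes E-cadherin, had 65.4 CPM (59.5 to 71.8) against 64.6 CPM, with 31.1 CPM in the Hand1 class, 76.9 CPM in cells with 0 T UMIs and, within these, 126.6 CPM in formative-high cells. Epcam had 202 CPM against 172 CPM (203 CPM in cells with 0 T UMIs), Cldn6 50.3 CPM against 47.1 CPM (54.5 CPM), and Cldn7, a tight junction claudin, was 2.32-fold higher (2.18 to 2.47), at 214 CPM, with 206.8 CPM in formative-high cells. Snai1, the repressor of Cdh1, had 7.78 CPM against 8.48 CPM, and the intermediate filament gene Vim 180 CPM against 147 CPM. Of the germ cell list, 6 of 10 genes reached 10 CPM, 1 of them 2-fold higher and 2 lower, and the median log2 ratio was 0.04. Dnd1, which protects germ cell RNAs, was 4.79-fold higher (4.23 to 5.43), Dppa3, a maternal factor also found in naive cells, 3.72-fold lower (3.28 to 4.23), and the receptor gene Kit 3.38-fold lower (2.26 to 5.28), while the germ cell factor Prdm1 was 1.39-fold higher (1.06 to 1.79). Nanos3, another, was under 10 CPM in both sets, with a ratio of 1.22 whose interval included equality (0.884 to 1.66). All 15 S phase genes and all 15 G2/M genes lay within 2-fold.

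The promoters of interferon genes carry known response elements, and 3 of them are shown here with every match of the letters GAAANNGAAA, an interferon-stimulated response element in reduced form, in capitals (RefSeq, GRCm38.p6, 5′ to 3′ on the gene's strand). They stand at chr4:156200845-156200926 on the minus strand, chr8:71537557-71537632 on the minus strand and chr2:122147518-122147587 on the plus strand, and their first matches begin 78, 130 and 139 bases before the start site.
Isg15: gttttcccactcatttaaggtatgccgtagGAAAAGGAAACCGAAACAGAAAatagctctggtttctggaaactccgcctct
Bst2: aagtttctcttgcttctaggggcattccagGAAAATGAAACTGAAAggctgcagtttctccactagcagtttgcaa
B2m: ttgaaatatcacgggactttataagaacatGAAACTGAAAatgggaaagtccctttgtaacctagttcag
The Isg15 stretch holds 3 overlapping matches and the Bst2 stretch 2. Searched on both strands of the 250 bases before the start, the letters occurred at 10 of the 23 interferon genes in the RefSeq table, 1 of 10 immunoproteasome genes (B2m), 1 of 12 streak genes (Eomes) and 3.46% of 27025 symbols. Among the 7 interferon genes in that table that were at least 2-fold higher, 4 had a match.

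Isg15 (ENSMUSG00000035692, chr4:156199424-156200818), a ubiquitin-like protein induced by interferon, had 225 CPM in the T-positive cells (214 to 236) and 33.1 CPM in the others (31.3 to 35.0), 6.80-fold higher (6.31 to 7.32). It ranged from 0 to 47 UMIs per T-positive cell with a median of 4, was found in 132 of the 264 thinned T-positive cells (43.8% to 56.2%; 79.3% unthinned), and in 0.402% of naive-high cells (1.18% unthinned). The thinned share was 7.53% in formative-high cells (27.75% unthinned) and 20.1% in Hand1 class cells. Of the 16 interferon genes at 10 CPM or more, 10 were at least 2-fold higher and 0 lower, with a median log2 ratio of 1.61 over 20 genes. Rtp4 and Oasl2, both interferon-induced, were 8.45-fold (7.22 to 9.90) and 6.78-fold (5.68 to 8.09) higher. The antiviral tetherin gene Bst2 had 414 CPM against 175 CPM, and the transcription factor gene Irf1 was 3.57-fold higher (3.19 to 3.99). Gbp2, a guanylate-binding protein, was 3.98-fold higher, but it has near-identical copies that may share its reads.

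Not all interferon genes were higher. Ifitm1 and Ifitm2, interferon-induced membrane proteins that stem cells express without interferon, were 1.19-fold and 1.24-fold lower, Ifitm3 1.77-fold higher, and these 3 genes are close copies. Rsad2, an antiviral enzyme, had 2 UMIs, and Ifit1, Ifit2, Ifit3 and Irf7 stayed under 10 CPM, although Ifit1 had 8.07 CPM (6.08 to 10.5) against 0.931 CPM (0.652 to 1.29). Over the 21 interferon ligand genes in the gene table the T-positive cells held 0 UMIs, which allows up to 0.440 CPM at 3 counts, and the other LB cells held 1.

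Antigen processing genes were higher throughout. Of the 12 immunoproteasome and MHC class I genes, 11 reached 10 CPM and all 11 were at least 2-fold higher, against 2.92% of all counted genes, and Nlrc5, the class I transactivator, had 1.03 CPM. Psmb8 (ENSMUSG00000024338), a catalytic subunit of the immunoproteasome, had 432 CPM (417 to 448) against 101 CPM (97.9 to 104), 4.28-fold higher (4.08 to 4.49), and was found in 74.2% of thinned T-positive, 4.42% of naive-high, 31.2% of formative-high and 43.1% of Hand1 class cells. The peptide transporter gene Tap2 was 5.34-fold higher (4.37 to 6.53). B2m, the light chain of class I molecules, had 165 CPM (155 to 175) against 50.2 CPM. H2-K1 and H2-D1, class I heavy chains with close copies, were 3.01-fold and 3.13-fold higher.

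The remaining LB cells were then split by the same genes to see which classes shared these levels: 34 cells with T over the Mesp limit (T and Mesp class), 13 over the Mesp limit with at most 1 T UMI (Mesp class), 342 in the Hand1 class, 106 with 1 T UMI and 1018 with 0. The 255 naive-high and 191 formative-high cells belong to the last. The T and Mesp class was close to the T-positive cells in Igfbp3 (283 CPM), Fst (147 CPM), Isg15 (204 CPM) and Psmb8 (462 CPM), and had more Fgf8 (579 CPM), Lhx1 (127 CPM) and Rspo3 (254 CPM against 66.3 CPM) but less Apln (6.88 CPM, from 5 UMIs) and Cldn7 (57.8 CPM). Its Cdh1 was 24.8 CPM and its Snai1 56.4 CPM, and its Vim 433 CPM. The Mesp class, with 183 CPM of Eomes and 112 CPM of Mixl1, had 24.9 CPM of Igfbp3 and 66.4 CPM of Isg15. These came from 44, 27, 6 and 16 UMIs in 13 cells, and 3 of the 13 held a Mixl1 UMI.

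The Hand1 class had 57.2 CPM of Igfbp3, 81.4 CPM of Isg15, 241 CPM of Psmb8 and 144 CPM of Fgf8, each between the T-positive cells and the naive-high cells, which had 9.37, 0.468, 8.90 and 3.75 CPM. Low naive genes were shared with the Hand1 class. Zfp42 had 59.9 CPM in these, 30.7 CPM in the Hand1 class and 181 CPM in the formative-high cells, against 1163 CPM in the naive-high cells, which were chosen on it. Set against the Hand1 class alone, a comparison added after the data were seen, the naive list median changed sign to 0.86, while the streak median was 0.65 without T (0.94 with it) and the interferon and immunoproteasome medians 1.24 and 0.78. Pou5f1 and Nanog separated these classes: 260 CPM of Pou5f1 and 13.95 CPM of Nanog in the Hand1 class, against 760 CPM and 65.3 CPM in the T-positive cells. Of genes higher in T-positive cells than in the other LB cells as a whole, some were higher still in other classes. Examples in the Hand1 class were Rspo3 (84.8 CPM) and Axin2 (29.1 CPM against 24.9 CPM), and Rspo3 was also higher in the T and Mesp class, as given above. Aplnr was found in 14.8% of T-positive, 35.3% of T and Mesp and 38.5% of Mesp class cells (unthinned). Examples in the formative-high cells were Nes (35.4 CPM) and Fgf5 (15.8 CPM against 13.2 CPM). Fgf5 belongs to the list on which those cells were chosen. Of genes lower, Gdf3, Lefty2 and Dppa3 had 24.6, 51.1 and 38.1 CPM in T-positive cells and 7.30, 20.06 and 10.46 CPM in the Hand1 class. Bmp4 had 164.9 CPM in the Hand1 class and 15.9 CPM in cells with 0 T UMIs, against 13.6 CPM in T-positive cells. H19, an imprinted RNA of extraembryonic and mesodermal tissue, had 14.4 CPM in T-positive cells and 629 CPM in the Hand1 class.

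**Figure D3:**
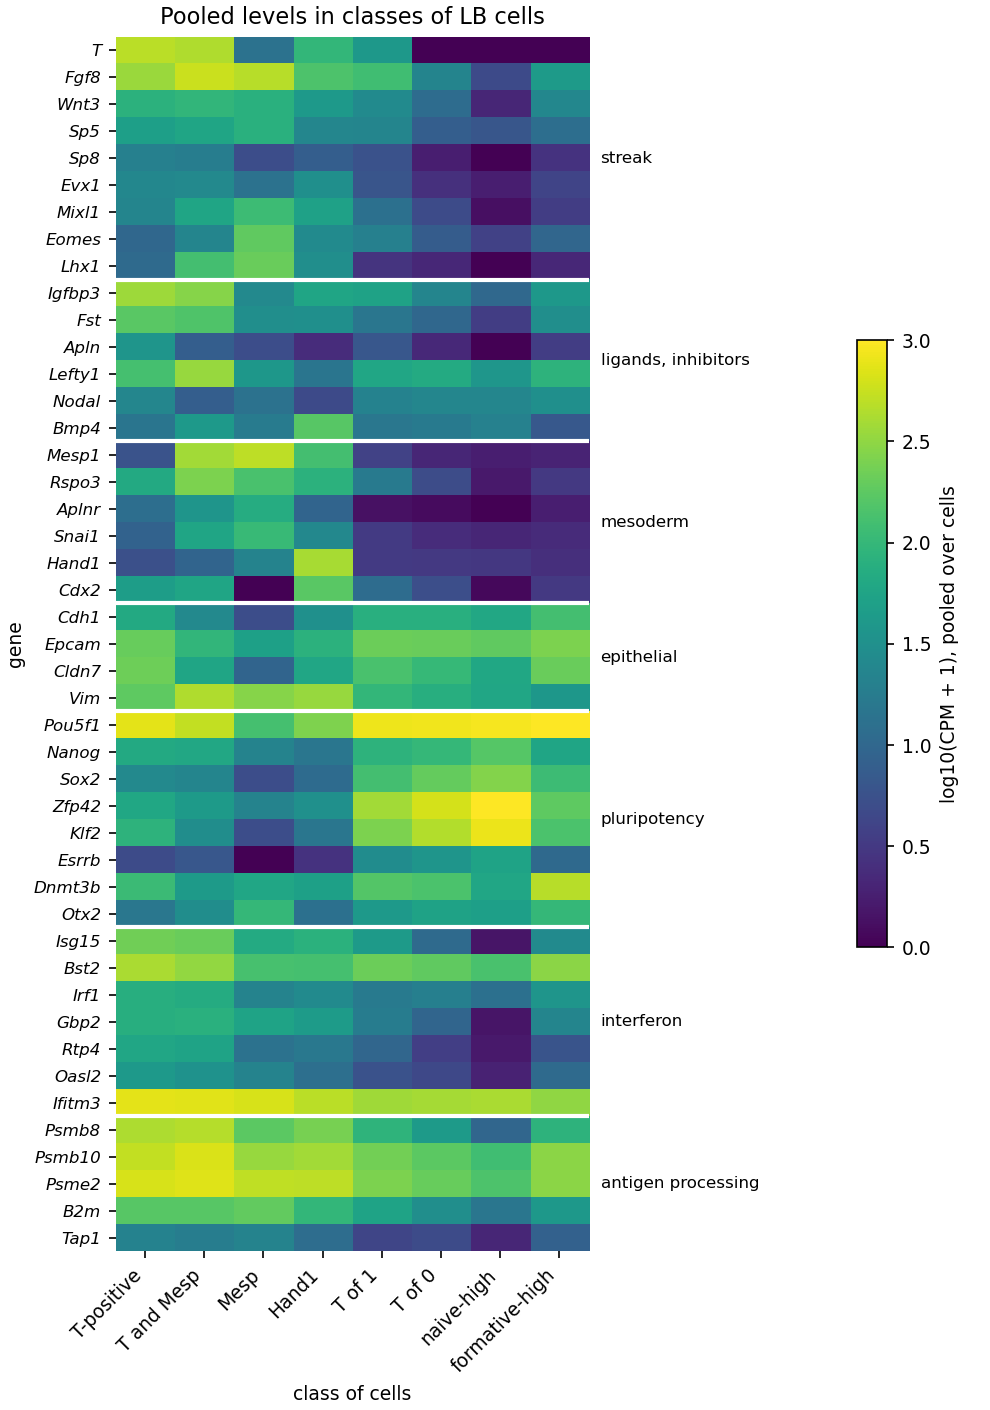
Pooled levels, as log10(CPM + 1) in colour, of genes in rows by role and classes of LB cells in columns; naive-high and formative-high cells are subsets of the cells with 0 T UMIs. Igfbp3, Fst, Isg15 and the antigen processing genes are high in the T-positive and the T and Mesp columns, Mesp1, Lhx1 and Eomes in the Mesp columns, and Zfp42, Klf2 and Sox2 in the T of 1, T of 0 and naive-high columns.

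Per cell, the summed level of the 14 streak genes had a median of 993.8 CPM in T-positive cells (49.8 to 3968.1) and 50.3 CPM in the other LB cells; without T, on which the cells were chosen, it was 532.4 CPM (0 to 3124.8) against 47.2 CPM. The immunoproteasome sum had a median of 2260 CPM (123 to 13829.8) against 555.8 CPM, the interferon sum 2385.4 CPM against 1840.4 CPM, where the abundant Ifitm genes weigh most, and the naive sum 249.7 CPM (0 to 2441) against 1213.2 CPM. The T and Mesp class had a higher streak median with T included (1419.2 CPM) and a higher interferon median (3162.1 CPM) than the T-positive cells. Its immunoproteasome and naive medians were 2201.5 and 161.9 CPM. The ranges of T-positive and other cells overlapped in each list. Of other classes, the definitive endoderm, Hox, fibroblast and axial mesoderm sums each had a median of 0 CPM per cell in T-positive and other LB cells alike, the extraembryonic mesoderm sum without the genes of the Hand1 limit a median of 0 CPM against 32.0 CPM in the others, and the primitive endoderm and trophoblast sums medians of 105.8 and 319.8 CPM against 134.9 and 130.5 CPM in the others.

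**Figure D4:**
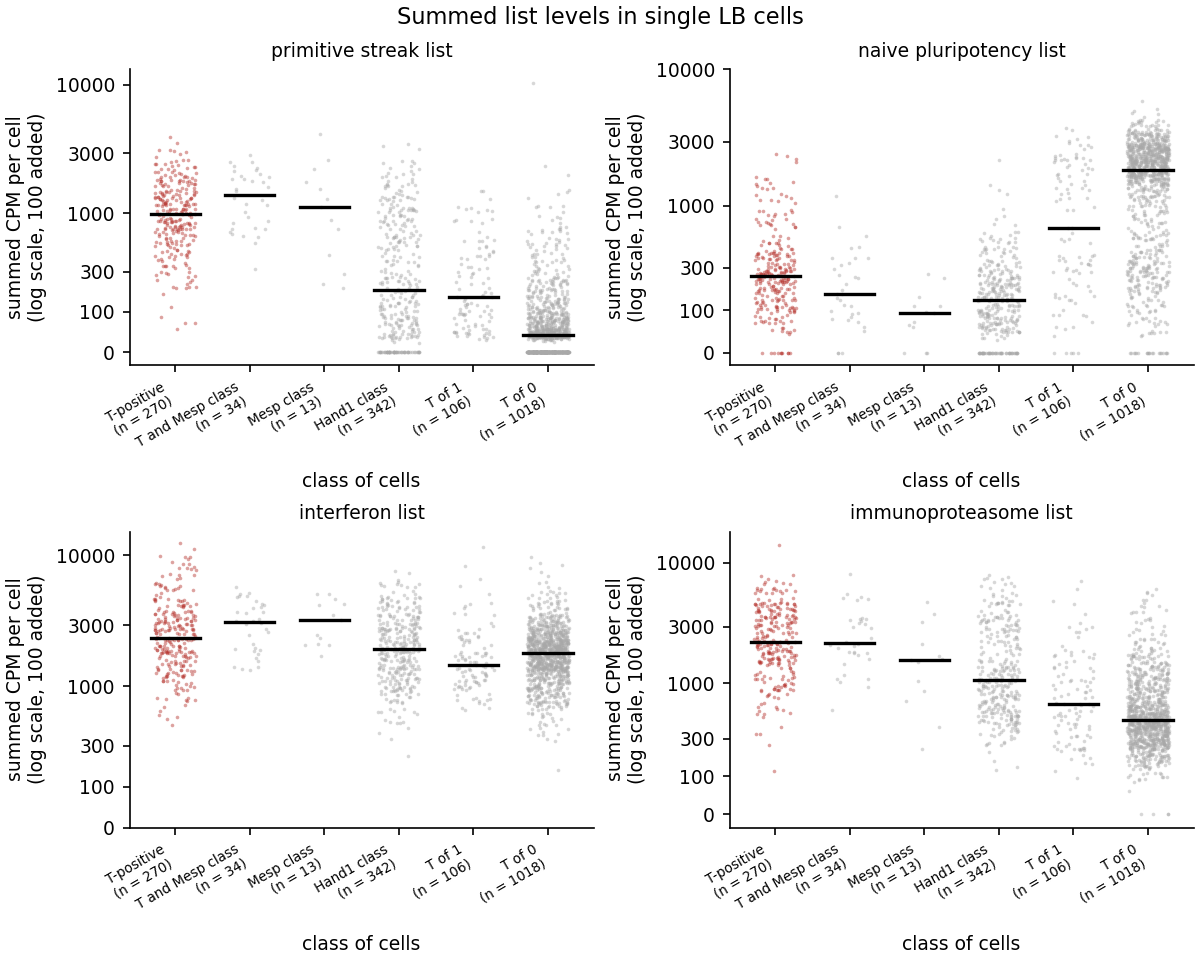
Summed CPM of 4 gene lists (the streak list with T included) in each LB cell (points; y axis on a log scale with 100 added) by class, with the median as a bar and T-positive cells in red. The immunoproteasome median is 2260 CPM in T-positive cells and lower in the Hand1, T of 1 and T of 0 classes, and the naive list has its highest medians in the T of 1 and T of 0 classes.

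The T-positive cells also varied among themselves, and the 90 cells lowest in T CPM were set against the 90 highest. Their median depths were 26719.5 and 23308 UMIs, so the lower set was deeper. Fgf8 had 221 CPM in the lowest and 520 CPM in the highest 90, Igfbp3 207 and 496 CPM, Isg15 110 and 357 CPM, and Psmb8 266 and 632 CPM. Mixl1 had 7.11 and 47.8 CPM, while Eomes went the other way, with 13.4 and 3.25 CPM, as did Zfp42, with 105 and 25.1 CPM, and Dnmt3b, with 153 and 54.3 CPM. For Mixl1, Eomes and Zfp42, 10 of the 270 cells held 56.3%, 49.2% and 58.6% of the UMIs, so few cells weigh heavily in these values. Pou5f1 had 794 and 729 CPM and Evx1 29.2 and 27.4 CPM, with 13.6 CPM (9.12 to 19.6) in the 90 cells between them. Depth moved with these levels: between the 135 shallower and the 135 deeper T-positive cells, Fgf8 had 457 and 294 CPM, Igfbp3 446 and 314 CPM, Isg15 261 and 204 CPM, Psmb8 548 and 365 CPM, Dnmt3b 85.03 and 122.7 CPM, and Zfp42 22.4 and 81.6 CPM. Mixl1 had 26.3 and 19.7 CPM in these sets and Eomes 9.98 and 8.35 CPM. The part of depth in the differences by T level was not tested. The cells with 2 to 4 T UMIs, nearest the lower limit, still had 222 CPM of Fgf8 and 117 CPM of Isg15, and 135 CPM of Zfp42.

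**Figure D5:**
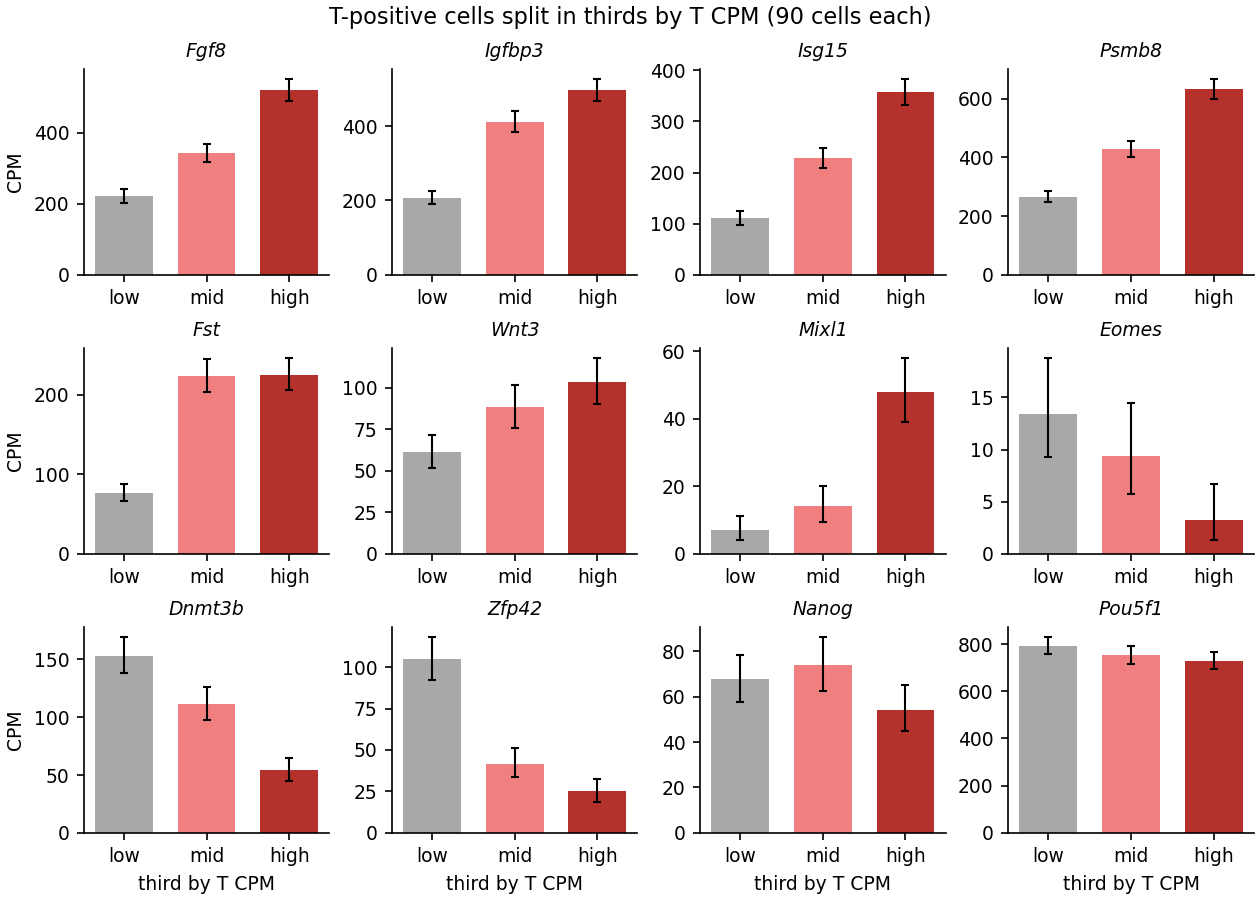
CPM of 12 genes (y axis, from 0) in the T-positive cells split into 3 sets of 90 by T CPM (x axis), with exact Poisson 95% intervals. Fgf8, Igfbp3, Isg15, Psmb8 and Mixl1 are highest and Eomes, Dnmt3b and Zfp42 lowest in the set highest in T, and Pou5f1 stays between 729 and 794 CPM.

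Whether these genes met in the same cells was read after thinning to 10000 UMIs, which 260 T-positive cells reached. Psmb8 was found in 97.1% of the 173 cells with an Isg15 UMI and 60.9% of the 87 without. Fst was found in 77.2% of the 57 cells with Apln and 40.9% of the 203 without, and Igfbp3 in 85.8% of the 127 with Fst and 61.7% of the 133 without. Isg15 was found in 68.0% of the 203 cells with Fgf8 and 61.4% of the 57 without; unthinned, the shares were 79.0% with Fgf8 and 80.5% without. Fgf8 was found in 75.4% of the 69 cells with Zfp42 and 79.1% of the 191 without. These shares come from cells of 1 library and say nothing of the spread between cultures.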

How the data were processed

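Per the submitters' processing notes, the authors used Cell Ranger 4.0.0 and mm10, and they deposited UMI counts per gene and barcode for 32285 genes; the gene annotation and cell calling settings are not given in the sources used here. Per the labels' protocols the libraries used 10x Genomics 3′ chemistry, version 2, which reads transcript ends, so levels were compared between sets of cells, not between genes.

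Barcodes with at least 1000 genes and at most 10% mitochondrial UMIs were kept (1783 of 2008 in LB, 2705 of 3111 in LBPXRS). UMIs were summed per class and scaled to CPM. Log2 ratios used a pseudocount of 1 CPM, which understates changes of low genes; folds with intervals used none. Intervals are exact (Poisson, binomial, conditional binomial for ratios), at 95%. The 12 largest and 12 smallest ratios at 20 CPM or more, the rule's genes and 35 gene lists gave the named genes; Trh was chosen after its values were seen. The cells and the lists were chosen with earlier results of these data known. Some lists share genes: Fgf8, Sp5, Sp8 and Evx1 are also in the caudal epiblast list. Code was tested on simulated data.

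Python 3.11.15 with numpy 2.4.6, scipy 1.17.1, pandas 2.3.3, scanpy 1.11.5 (Scrublet) and matplotlib 3.10.9 was used, and edgeR 4.0.16 for TMM factors alone. Promoters and gene positions came from RefSeq tables for GRCm38.p6. The LBPXRS library was used for the same limits, T and Eif2s3y only. Single values of some list genes are not reported here.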

Additional observations from a re-analysis of the deposited data

How the results depend on the processing

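Counts and list medians were recomputed under 20 alternatives, 2 of them added after the data were seen (without cells under 0.5% mitochondrial UMIs, and against the Hand1 class). With a T minimum of 1 UMI the T-positive share was 21.1%, with 136 genes 2-fold higher and 157 lower and naive and immunoproteasome medians of -1.27 and 1.30; with a minimum of 5 the share was 11.0%. Against other LB cells within the Hand1 and Mesp limits 520 genes were higher, and the streak (T included) and immunoproteasome medians were 2.40 and 2.15; against cells with T of 0 they were 2.04 and 1.97; without T the streak medians were 2.35 and 1.55. With a CPM minimum of 5, 417 genes were lower; with 50, 55 were higher and 67 lower; with none, 449 and 679. TMM scaling gave 176 higher and 303 lower.

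Against the Hand1 class the immunoproteasome median was 0.78 and these values changed sign: naive list 0.86, FGF ligands 0.69, Esrrb 0.81, Evx1 -0.35, Fam25c 0.68, Gm49504 0.56, Gpa33 0.78, Hoxb1 -0.52, Hsf2bp 0.64, Jam2 0.89, Khdc3 0.057, Klf2 2.53, Morc1 1.22, Otx2 0.30, Sox2 1.21, Spp1 0.52, Tcl1 0.27, Trh 2.67 and Zfp42 0.94. Against cells within the limits Hand1 was 0.78 and Mesp1 1.35, both genes of the rule; with list genes at a mean of 10 CPM or more the caudal epiblast median was -0.0041. Over all settings, single gene ratios kept their direction and size in 722 cases, moved in 234 and changed sign in 19. Shares of cells with a UMI moved in 92 cases and not in 10, for example Sp8 from 8.33% to 30.7% unthinned. The sign changes follow from which cells or genes are compared. No paired analysis was possible because each condition has 1 library. Depth limits Sp8, Apln and other sparse genes to shares of cells near the level of 1 UMI.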
